A study of Mus musculus with 6 samples.

Results

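Genes of neurons and of the autonomic ganglia that innervate the heart were examined in the cardiac outflow tract (OFT) of mouse embryos at E13.5, by bulk RNA-Seq. The members were the 9 rows of the deposited count table whose Ensembl identifiers map to *Tubb3*, *Stmn2*, *Elavl3*, *Elavl4*, *Kif5a*, *Nefl*, *Nefm*, *Prph* and *Dbh*. The table lists 28777 genes, of which 28157 were tested, and all 9 members passed the filter on low counts. There were 3 libraries labelled mutant (*Notch1*+/-; *Nos3*-/-) and 3 labelled wildtype, each made from 3 pooled OFTs, so 18 OFTs in all. The mutant allele pair combines loss of 1 copy of the Notch1 receptor with loss of both copies of endothelial nitric oxide synthase in every cell of the embryo. Mutant and wildtype embryos were littermates from *Notch1*+/-; *Nos3*+/- males crossed with *Nos3*+/- females. Whole dissected OFTs were used without sorting, so that each library mixes all cell types of the tissue. The comparison asks which transcripts of the OFT differ at this stage between compound mutants and wildtype littermates.

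Neurons carry a cytoskeleton of their own, with a neuron-specific beta tubulin, stathmins that bind tubulin, and intermediate filament proteins that fill the axon. ELAV-like proteins bind and stabilise neuronal mRNAs, and kinesin-1 motors carry cargo along axonal microtubules. Cardiac ganglia arise from neural crest cells that migrate through the outflow region, where parasympathetic neurons collect near the great vessels and sympathetic axons arrive later.

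Depth was between 34729103 and 44387490 counts per library, so that 3 counts, the floor used here, stood for 0.0675 to 0.0924 CPM, which are counts scaled to library size and TMM factor. *Notch1*, a targeted gene, stood at 82.0 ± 7.09 CPM under the wildtype label (SD, n = 3) and at 152 ± 10.9 under the mutant label. Its log2 fold change was 0.89 (SE 0.10; adjusted p = 0.0313, the quasi-likelihood test of edgeR, Benjamini-Hochberg adjusted). *Notch1* was therefore higher under the label that names loss of a copy, and every direction below refers to the labels and not to the genotypes. *Nos3* had 42.4 ± 9.18 CPM under the wildtype label and 21.5 ± 0.949 under the mutant label, with a log2 fold change of -0.98 (SE 0.15; adjusted p = 0.128, edgeR).

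The 9 members were low but detected in all 6 libraries. Their summed level was 32.3, 29.7 and 16.7 CPM in the libraries labelled wildtype 1, 2 and 3, and 40.5, 44.4 and 33.2 CPM in those labelled mutant 1, 2 and 3. The gap rested on *Tubb3*, at 9.67, 6.65 and 4.56 CPM against 18.5, 18.3 and 14.6 CPM. Without *Tubb3* the summed levels of the labels overlapped. The library labelled wildtype 3 held the lowest level of 7 of the 9 members. None was called in the comparison of the groups (0 of 9 at an adjusted p of at most 0.05, edgeR), beside 6 of all 28157 genes (0.0213%). At an unadjusted p under 0.05, 2 of 9 were higher under the mutant label, *Tubb3* and *Kif5a*, beside 2318 of all genes (8.23%). The libraries of the groups did not overlap for the same 2 members, higher under the mutant label, beside 3013 of all genes (10.7%). DESeq2's Wald test called both (2 of 9), beside 411 of all genes called higher (1.46%). The median log2 fold change was 0.17 over the 9 members, with 6 above and 3 below 0, and 0.01 over all genes tested. These transcripts are compared here per amount of RNA from the whole, unsorted OFT. A different number of neurons cannot be told apart from a different amount of these RNAs per neuron, or from these RNAs in other cells.

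**Figure D1:**
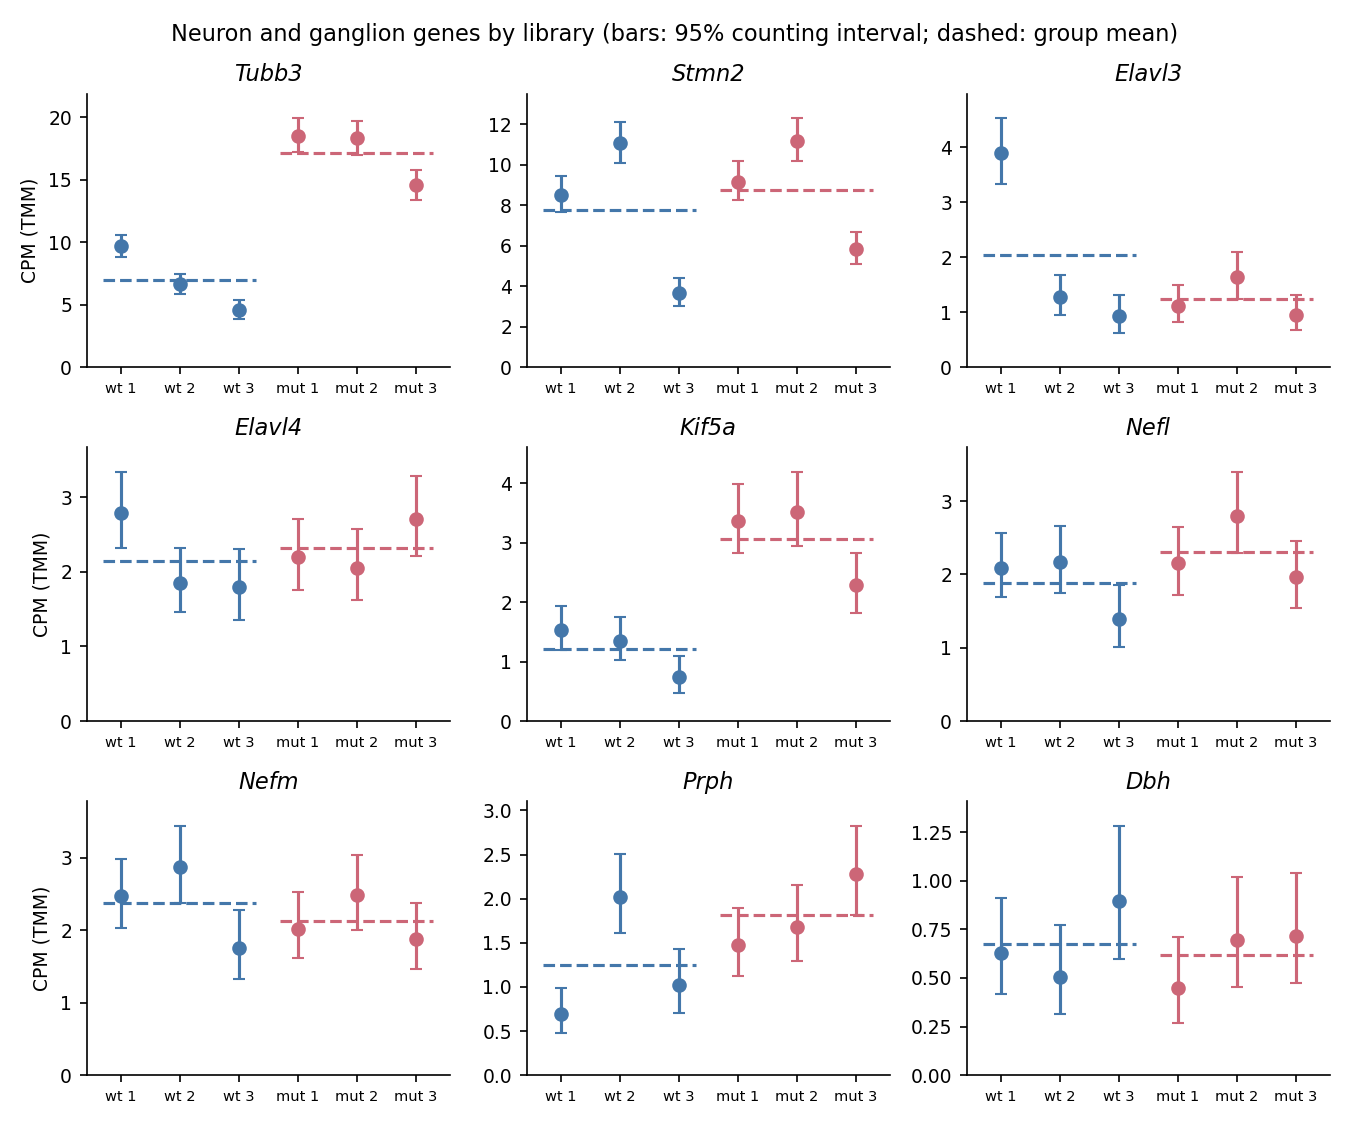
CPM (y axis, TMM-scaled, from 0) of each of the 9 genes in the 3 libraries labelled wildtype (blue, wt) and the 3 labelled mutant (red, mut), with exact 95% Poisson intervals for counting error only and dashed group means. The 3 red points lie above all blue points for *Tubb3* (14.6 to 18.5 against 4.56 to 9.67 CPM) and *Kif5a* (2.28 to 3.52 against 0.739 to 1.53 CPM), and the colours overlap for the other 7 genes.

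Promoter windows of 300 bases, from 250 bases before a RefSeq transcript start to 50 after it (assembly GRCm38.p6), were given for *Tubb3*, *Elavl3*, *Elavl4* (4 windows), *Prph* and *Dbh*, 5 of the 9 members. The bases before the annotated gene are printed for 4 of them to set the promoter of *Tubb3*, the most abundant member, beside those of members whose groups overlapped. They lie at chr8:123411303-123411423 (plus strand) for *Tubb3*, chr9:22052024-22052273 (minus strand) for *Elavl3*, chr4:110351912-110352161 (minus strand) for the most upstream start of *Elavl4*, and chr15:99054924-99055173 (plus strand) for *Prph*. Sequences run 5′ to 3′ along the gene, and capitals mark matches on either strand to the TATA box TATAAA, the CCAAT box CCAAT, the GC box GGGCGG and the E-box CAGCTG, none of which overlap each other here.
Tubb3: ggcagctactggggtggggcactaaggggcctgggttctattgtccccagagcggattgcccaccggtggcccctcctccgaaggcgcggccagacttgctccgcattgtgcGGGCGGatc
Elavl3: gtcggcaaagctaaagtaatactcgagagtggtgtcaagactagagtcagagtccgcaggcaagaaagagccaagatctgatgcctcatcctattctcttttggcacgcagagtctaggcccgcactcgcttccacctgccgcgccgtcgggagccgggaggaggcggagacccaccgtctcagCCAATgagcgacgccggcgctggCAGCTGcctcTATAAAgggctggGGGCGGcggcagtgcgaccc
Elavl4: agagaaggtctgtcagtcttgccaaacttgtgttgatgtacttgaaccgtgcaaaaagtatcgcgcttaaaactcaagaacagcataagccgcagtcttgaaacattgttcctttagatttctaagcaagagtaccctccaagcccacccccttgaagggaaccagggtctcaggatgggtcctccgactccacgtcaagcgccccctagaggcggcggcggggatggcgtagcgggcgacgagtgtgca
Prph: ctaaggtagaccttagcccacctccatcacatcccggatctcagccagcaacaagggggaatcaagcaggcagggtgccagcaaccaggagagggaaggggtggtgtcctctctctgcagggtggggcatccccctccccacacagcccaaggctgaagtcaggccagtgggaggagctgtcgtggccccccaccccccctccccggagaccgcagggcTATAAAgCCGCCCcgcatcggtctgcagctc
The letters of the TATA box were found shortly before the start in *Elavl3* and *Prph*, and in 13.6% of the 32851 RefSeq mouse promoter windows of this length. The window of *Tubb3* held none. It held 2 GC boxes, letters present in 35.7% of all windows, of which 1 lies in the printed stretch, and the windows of *Elavl3* and *Prph* held 2 and 1. The printed *Elavl4* window held none of the motifs searched. CAGCTG, present in 16.3% of windows, was found in the windows of *Elavl3* and of other *Elavl4* starts, and CCAAT, present in 37.4%, in those of *Tubb3*, *Elavl3*, *Dbh* and other *Elavl4* starts. The cyclic AMP response element TGACGTCA (1.79% of windows) and the left arm TTCAGCACC of the element bound by the neuronal repressor REST (0.371%) were found in no member window, and the right arm GGACAG (22.2%) in those of *Tubb3* and *Dbh*. These matches describe letters only.

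*Tubb3*, at chr8:123411424-123422015 on mm10 (plus strand, 4 exon blocks), encodes beta tubulin III, the tubulin by which neurons are commonly stained. It had 9.67, 6.65 and 4.56 CPM in the libraries labelled wildtype and 18.5, 18.3 and 14.6 CPM in those labelled mutant, from 148 to 741 counts. The annotated gene *Gm20388* spans it on the same strand with 0 shared exon bases. The lowest *Tubb3* level of the mutant label lay above the highest of the wildtype label. The fold change was 2.45 (log2 1.29, SE 0.23; edgeR adjusted p = 0.128), and DESeq2's Wald test gave an adjusted p of 6.09e-05. With the replicate number as a block, edgeR gave a log2 fold change of 1.34 and an adjusted p of 8.03e-05. That block called 1577 of all genes (5.60%). Its pairing rests on correlations in these same data, and the labels name no litter or day. The two-sided exact permutation test gave p = 0.1, the smallest that 3 libraries against 3 allow.

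*Kif5a*, at chr10:127225696-127263348 (minus strand), encodes the neuronal heavy chain of the kinesin-1 motor. It had 1.53, 1.35 and 0.739 CPM under the wildtype label and 3.37, 3.52 and 2.28 CPM under the mutant label, from 24 to 135 counts. As for *Tubb3*, the groups did not overlap and the library labelled wildtype 3 was lowest. The fold change was 2.51 (log2 1.33, SE 0.30; edgeR adjusted p = 0.181), with an adjusted p of 0.00913 by DESeq2 and 0.00254 by edgeR with the replicate number as a block. The exact permutation p was again 0.1. The block called both genes (2 of 9 members) and 1577 of all genes, which is 5.60% of those tested. That block follows the numbers of the sample titles. With the numbers of the descriptions, which differ for wildtype 2 and 3, *Tubb3* was called (edgeR adjusted p = 0.00779) and *Kif5a* was not (0.0784), among 83 genes (0.295%). Without the library labelled wildtype 1 both were also called (edgeR adjusted p = 0.00854 for *Tubb3* and 0.0272 for *Kif5a*), among 2593 genes (9.45%).

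Of the relatives of these 2 genes in the tubulin and kinesin families, none was called by edgeR or DESeq2. *Tubb4a* had a log2 fold change of 0.39 (SE 0.28), with 5.89 to 14.4 CPM under the wildtype label and 9.52 to 14.7 CPM under the mutant label. *Tubb5*, the main beta tubulin of dividing cells, had 1140 to 1380 CPM and a log2 fold change of -0.16 (SE 0.11). *Tubb2a*, *Tubb2b*, *Tubb4b* and *Tubb6* had log2 fold changes from -0.27 to -0.10, and *Tubb1*, the platelet form, -0.94 (SE 0.47) at 0.350 to 1.39 CPM. *Kif5c*, the other neuronal heavy chain, had a log2 fold change of 0.51 (SE 0.34), and the ubiquitous *Kif5b* -0.16 (SE 0.10). The light chains *Klc1* to *Klc4* had values from 0.05 to 0.21.

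*Stmn2*, at chr3:8509360-8561606 (plus strand), encodes stathmin 2, a tubulin-binding protein of growing axons. It had 8.53, 11.1 and 3.67 CPM under the wildtype label and 9.17, 11.2 and 5.86 CPM under the mutant label. The groups overlapped throughout, and replicate 3 was the lowest library within each label. The log2 fold change was 0.17 (SE 0.34; adjusted p = 0.850, edgeR), and exact permutation gave p = 0.6. *Stmn1*, the form of proliferating cells, had 165, 183 and 206 CPM against 152, 142 and 157 CPM, with a log2 fold change of -0.30 (SE 0.11; edgeR adjusted p = 0.241). *Stmn4* had a log2 fold change of 0.11, and *Stmn3* stood at 0.0308 to 0.587 CPM.

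*Elavl3* and *Elavl4*, the neuronal ELAV-like genes HuC and HuD, lie at chr9:22015005-22052023 and chr4:110203722-110351909, both on the minus strand. *Elavl3* shares 256 exon bases (3.70%) with *Gm49318* on the same strand. It had 3.89, 1.28 and 0.924 CPM under the wildtype label and 1.12, 1.63 and 0.955 CPM under the mutant label. The library labelled wildtype 1 stood above the others, with 173 counts against 30 to 61 elsewhere. The log2 fold change of *Elavl3* was -0.73 (SE 0.48; adjusted p = 0.477, edgeR), and 0.16 without that library. *Elavl4* had 2.79, 1.85 and 1.79 CPM against 2.20, 2.05 and 2.71 CPM, and wildtype 1 was again the highest library. Its log2 fold change was 0.11 (SE 0.25; adjusted p = 0.867, edgeR). *Cntn2*, an axonal adhesion molecule noted after its values were seen, also had its highest level in wildtype 1, at 1.60 CPM against 0.106 to 0.337 CPM in the other 5 libraries. Of the other ELAV-like genes, *Elavl2* had a log2 fold change of 0.21 (SE 0.26) and the ubiquitous *Elavl1* -0.03 (SE 0.10).

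**Figure D2:**
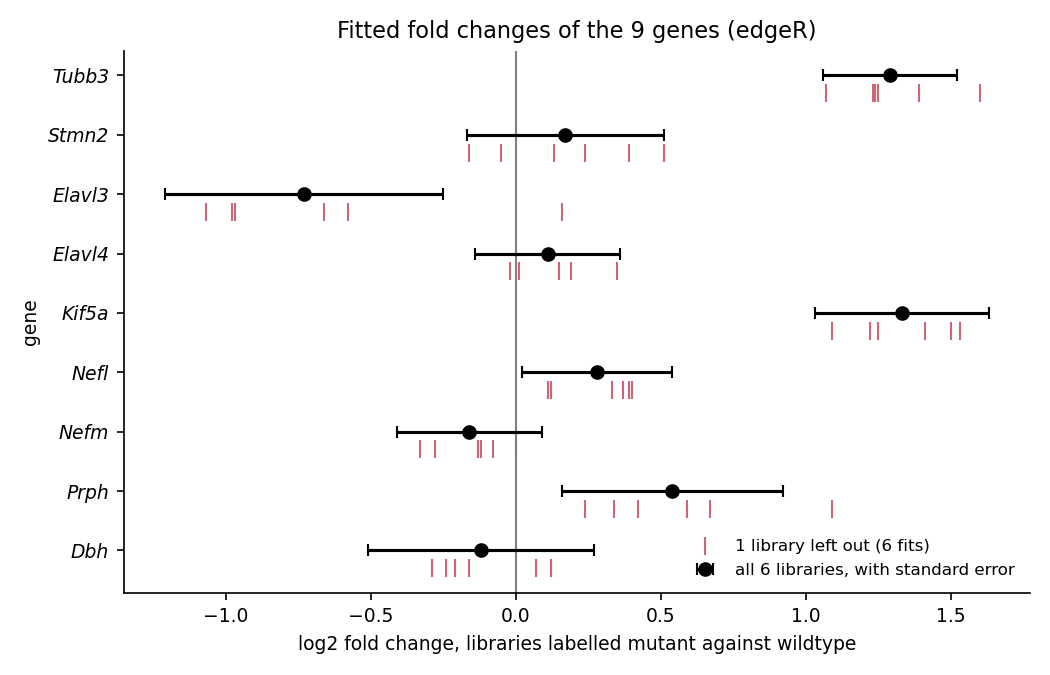
Log2 fold change (x axis, libraries labelled mutant against wildtype, edgeR) of each of the 9 genes, with points and bars for the estimate and its standard error over all 6 libraries and red ticks for the 6 fits that leave out 1 library each. Ticks stay between 1.07 and 1.60 for *Tubb3* and between 1.09 and 1.53 for *Kif5a*, whereas those of *Elavl3* run from -1.07 to 0.16.

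The neurofilament genes overlapped between the labels. *Nefl*, the light neurofilament subunit, had 2.09, 2.17 and 1.39 CPM under the wildtype label and 2.15, 2.80 and 1.96 CPM under the mutant label, a log2 fold change of 0.28 (SE 0.26; adjusted p = 0.619, edgeR). *Nefm*, the medium subunit, had 2.47, 2.87 and 1.76 CPM against 2.02, 2.48 and 1.88 CPM, a log2 fold change of -0.16 (SE 0.25; adjusted p = 0.800, edgeR). These genes are neighbours at chr14:68083863-68089095 (*Nefl*, plus strand) and chr14:68082590-68124846 (*Nefm*, minus strand), and 1108 exon bases are shared on opposite strands, 32.8% of *Nefl* and 19.2% of *Nefm*. Since the use of strand in the counting is not given in the sources used here, the split of reads between them is uncertain.

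*Prph*, at chr15:99055174-99058978 (plus strand), encodes peripherin, the filament protein of peripheral neurons. It had 0.697, 2.02 and 1.02 CPM under the wildtype label and 1.47, 1.68 and 2.28 CPM under the mutant label. The spread within the wildtype label spanned most of the mutant values. The log2 fold change was 0.54 (SE 0.38; adjusted p = 0.512, edgeR), and exact permutation gave p = 0.3. Among other filament genes, *Vim*, the filament of mesenchymal cells, had 1340 to 1490 CPM against 1550 to 1710 CPM (log2 fold change 0.18, SE 0.11; edgeR adjusted p = 0.418). *Des*, the muscle filament, had a log2 fold change of -0.47 (SE 0.18; edgeR adjusted p = 0.255), and *Nes* 0.09. *Nefh*, *Ina* and *Gfap*, filament genes of neurons or glia, stood at 0.106 to 0.819 CPM.

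*Dbh*, at chr2:27165233-27183200 (plus strand), encodes dopamine beta-hydroxylase, which makes noradrenaline. It lies 648.6 kb from *Notch1*. It had 0.630, 0.506 and 0.894 CPM under the wildtype label and 0.450, 0.694 and 0.716 CPM under the mutant label, from 18 to 29 counts a library. The groups overlapped, with a log2 fold change of -0.12 (SE 0.39; adjusted p = 0.915, edgeR). A difference smaller than the counting error of such counts was not detectable at this depth.

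Levels were set side by side between members only per length, as RPKM, which is TMM-scaled CPM divided by the exon length in kilobases. *Tubb3* was the most abundant in both groups, at 3.73 ± 1.38 RPKM (SD, n = 3) under the wildtype label and 9.17 ± 1.19 under the mutant label. *Stmn2* followed at 1.38 ± 0.670 and 1.56 ± 0.481 RPKM, and its libraries did not overlap those of *Tubb3* in either group. Under the wildtype label the order went on with *Prph*, *Nefl*, *Nefm*, *Elavl4*, *Elavl3*, *Dbh* and *Kif5a*, from 0.623 to 0.173 RPKM, and the libraries of each of these neighbours overlapped. Under the mutant label *Kif5a* stood 5th instead of 9th, at 0.438 ± 0.0969 RPKM against 0.173 ± 0.0592 under the wildtype label. There the libraries were also apart between *Nefl* and *Kif5a* and between *Nefm* and *Dbh*.

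The cardiac ganglion label was checked against genes that define autonomic neurons, named here after their values were seen. *Phox2a*, a transcription factor of autonomic neurons, had 0.225, 0.361 and 0.0308 CPM under the wildtype label and 0.600, 0.534 and 0.318 CPM under the mutant label (log2 fold change 1.18, SE 0.66; edgeR adjusted p = 0.397). *Th*, the first enzyme of catecholamine synthesis, had 0.652, 1.13 and 0.308 CPM under the wildtype label and 0.250, 0.320 and 0.133 CPM under the mutant label (log2 fold change -1.57, SE 0.56; edgeR adjusted p = 0.238). *Chat*, which makes acetylcholine, had 0.0450, 0.169 and 0 CPM against 0.600, 0.213 and 0.159 CPM (2.09, SE 0.94; edgeR adjusted p = 0.309). The vesicular transporters *Slc18a3*, of acetylcholine, and *Slc18a1*, of monoamines, had log2 fold changes of 1.24 (SE 0.55) and 1.14 (SE 0.50), with edgeR adjusted p = 0.305 and 0.299. The groups overlapped for *Phox2a*, *Th*, *Chat* and *Slc18a3*, and estimates from so few counts are imprecise. *Phox2a*, *Chat* and *Slc18a3* were at or under the floor in at least 1 library each, so the 9 genes are called neuron genes here and were not tied to a ganglion of 1 transmitter.

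Other neuronal genes were read from fixed lists. Of 32 further pan-neuronal and axonal genes tested, 22 were above and 10 below 0, with a median log2 fold change of 0.34, and edgeR called 0. At an unadjusted p under 0.05, 5 were higher and 2 lower by edgeR, beside 2318 and 2204 of all 28157 genes tested. DESeq2 called 1 higher, *Rtn1* (log2 fold change 0.63, SE 0.18; adjusted p = 0.0398), a membrane protein of the endoplasmic reticulum, named after its value was seen. Those with the largest differences at an average of 1 CPM or more included *Celf3* (0.98, SE 0.34), *L1cam* (0.88, SE 0.33) and *Syt1* (0.87, SE 0.62) on the log2 scale. *L1cam*, an axonal adhesion molecule, had 2.32, 1.71 and 0.801 CPM against 3.30, 3.23 and 2.47 CPM. *Syt1*, the calcium sensor of synaptic vesicles, overlapped widely, with 3.42, 0.988 and 0.216 CPM against 3.12, 3.23 and 2.28 CPM. Wildtype 3 was the lowest library for both. The genes of the list with the highest CPM, named after their values were seen, were not higher. *Ank3*, *Uchl1* and *Snap91* had log2 fold changes of 0 (SE 0.12), -0.18 (SE 0.10) and -0.50 (SE 0.21).

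Of 16 transcription factors of autonomic neurons, 14 were tested, and 0 reached an unadjusted p under 0.05 by edgeR, DESeq2 calling 0. Their median log2 fold change was 0.23. *Gata3* (0.62, SE 0.31), *Isl1* (0.56, SE 0.38), *Hand1* (0.40, SE 0.18) and *Sox4* (0.31, SE 0.17) had the largest values among those averaging 1 CPM or more, and the OFT also uses several of these factors outside neurons. *Isl1*, for example, had 9.52, 7.61 and 2.87 CPM against 11.1, 12.9 and 5.73 CPM, and marks second heart field cells as well.

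The 13 genes of catecholamine synthesis, storage and uptake had a median log2 fold change of -0.25, and edgeR called 0. At an unadjusted p under 0.05, 3 were higher and 3 lower by edgeR, beside 2318 and 2204 of all 28157 genes tested. *Npy*, a peptide released with noradrenaline, had 3.60, 1.20 and 0.154 CPM under the wildtype label and 4.57, 5.23 and 3.71 CPM under the mutant label (log2 fold change 1.41, SE 0.63; edgeR adjusted p = 0.305). *Ddc*, the decarboxylase that makes dopamine, had 71.2, 67.8 and 112 CPM against 48.2, 43.6 and 60.3 CPM. Its log2 fold change was -0.72 (SE 0.19), with an adjusted p of 0.194 by edgeR and 0.0162 by DESeq2. *Ddc* stood far above *Th* and *Dbh* in every library. *Cyb561* and *Slc18a2* had log2 fold changes of 0.41 and -0.40.

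Neurotrophin and GDNF family ligands and receptors direct the growth and survival of these neurons. Of 16 tested, 13 were above 0, with a median log2 fold change of 0.29, and edgeR and DESeq2 each called 0. At an unadjusted p under 0.05, edgeR had 4 higher and 1 lower, beside 2318 and 2204 of all 28157 genes tested. *Ntrk2*, the receptor of BDNF, had 15.6, 7.73 and 3.45 CPM against 10.5 to 23.5 CPM (log2 fold change 1.00, SE 0.43). *Ntrk3*, the receptor of neurotrophin-3, had 11.3, 5.83 and 2.25 CPM against 13.1, 18.3 and 6.29 CPM (0.95, SE 0.48). Within each label replicate 3 was lowest for both receptors, and the groups overlapped. *Ret*, the signalling receptor of the GDNF family, had a log2 fold change of 0.89 (SE 0.48), and *Nrtn*, its ligand neurturin, -0.75 (SE 0.27).

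**Figure D3:**
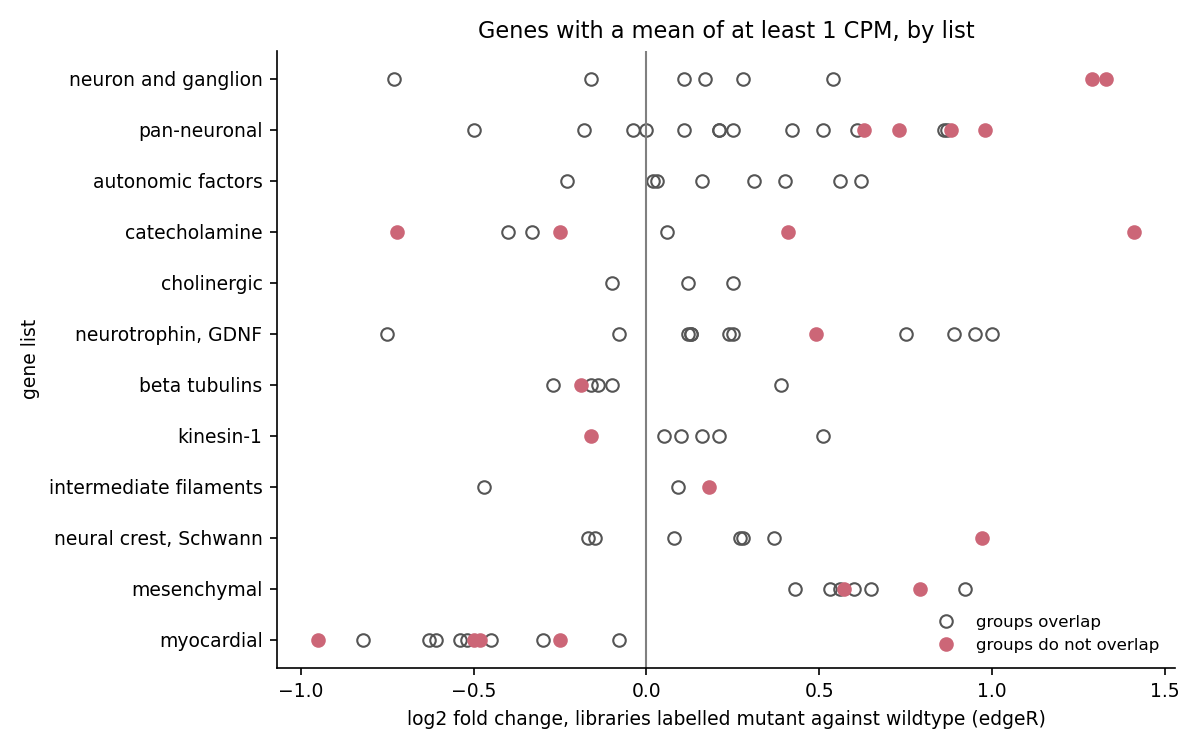
Log2 fold change (x axis, libraries labelled mutant against wildtype, edgeR) of every listed gene that averaged 1 CPM or more, by list (y axis), filled where the 3 libraries of the groups do not overlap. *Tubb3* and *Kif5a* are the filled points at 1.29 and 1.33 in the top line, and the mesenchymal and myocardial marker lists lie wholly to the right and to the left of 0.

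Marker lists of other cell types were read beside the members, and edgeR called 0 genes in each. Of all 28157 genes tested, 2318 were higher and 2204 lower at an unadjusted p under 0.05 by edgeR. DESeq2 called 411 of all genes higher and 331 lower. All 8 cushion mesenchyme markers were above 0 (median log2 fold change 0.58; 6 at an unadjusted p under 0.05 and 1 called by DESeq2), and their summed level was 3160 to 6040 CPM under the wildtype label and 5770 to 6920 CPM under the mutant label. All 12 myocardial markers were below 0 (median -0.51; 9 at an unadjusted p under 0.05 and 5 called by DESeq2), with sums of 31500 to 46600 and 21500 to 31000 CPM. All 8 erythroid markers were below 0 (median -0.56; 6 at an unadjusted p under 0.05 and 2 called by DESeq2), with sums of 5300 to 11800 and 6090 to 6230 CPM. The sums of the labels overlapped for mesenchymal and erythroid markers and did not for myocardial ones. The 8 smooth muscle markers, at 2900 to 3900 and 3140 to 5610 CPM, overlapped, as did the 8 endothelial markers, at 996 to 1290 and 1050 to 1170 CPM. DESeq2 called 1 gene higher in each. The smooth muscle markers went both ways, with 5 above and 3 below 0. Their sum was carried by *Eln* (757 to 4150 CPM) and *Acta2* (1050 to 1630 CPM). The library labelled wildtype 3, lowest in 7 of 9 members, had the lowest mesenchymal and the highest myocardial sum.

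The levels of *Tubb3* and *Kif5a* were also set against the mesenchymal and myocardial sums, after the values were seen. Both genes were already known not to overlap in CPM, and the share of all genes apart on these scales was not worked out. These ratios are therefore descriptions only. Per 1000 CPM of mesenchymal markers, *Tubb3* had 1.60, 1.65 and 1.44 CPM under the wildtype label and 2.83, 2.64 and 2.52 CPM under the mutant label, 1.70-fold higher without overlap. *Kif5a* had 0.253, 0.336 and 0.234 CPM against 0.516, 0.509 and 0.396 CPM on the same scale, 1.73-fold higher without overlap. With the mean of the mesenchymal list as a covariate, a choice made after the values were seen, the log2 fold changes were 0.69 and 0.72 (edgeR adjusted p = 0.255 and 0.658). Per 1000 CPM of myocardial markers the folds were 3.43 for *Tubb3* and 3.58 for *Kif5a*, again without overlap. *Elavl3* and *Nefm* were at 0.457 and 0.593 of the wildtype level per mesenchymal markers, without overlap. Per smooth muscle markers they were at 0.497 and 0.723, also without overlap. Per myocardial markers *Elavl3* and *Nefm* were at 0.836 and 1.29, with overlap, so their direction or size depends on the list. The part of the cell makeup in the differences between the labels was not tested further.

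**Figure D4:**
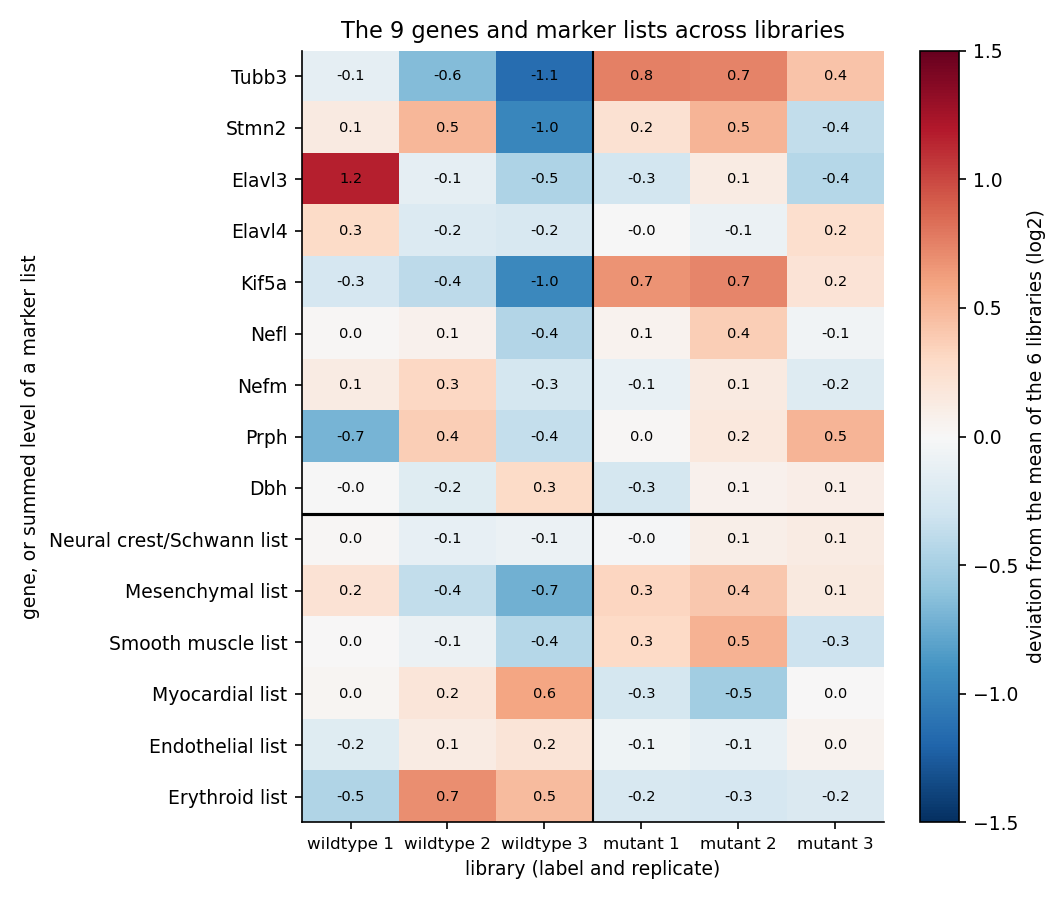
Deviation (log2, colour and printed value) of the 6 libraries (x axis) from their mean, for log2(CPM + 0.5) of the 9 genes (above the line) and for the summed level of 6 marker lists, also on log2(CPM + 0.5) (below). The library labelled wildtype 3 is lowest for 7 genes and for mesenchymal markers and highest for myocardial markers, and *Tubb3* and *Kif5a* are above their means in all 3 libraries labelled mutant.

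On log2(CPM + 0.5), Pearson r between pairs of members over the 6 libraries ran from -0.76 (*Stmn2* and *Dbh*) to 0.98 (*Tubb3* and *Kif5a*). The median r of a member with the others ran from -0.45 (*Dbh*) to 0.5 (*Nefl*), so the members did not all vary together. Averaged over the members, the deviation of log2(CPM + 0.5) was 0.07, -0.04 and -0.51 in the libraries labelled wildtype and 0.12, 0.31 and 0.05 in those labelled mutant. Over 16634 other genes that averaged 1 CPM or more, the 10 whose levels followed this profile most closely had Pearson r from 0.988 to 0.995 over the 6 libraries, which share their scaling. They were *A230057D06Rik*, *Cacng4*, *2610307P16Rik*, *4933427D14Rik*, *Gm37607*, *Mturn*, *Ctns*, *Bicc1*, *Sntg2* and *Chrd*. *Cacng4*, an auxiliary subunit of AMPA receptors and calcium channels, had 6.19, 5.13 and 2.62 CPM against 7.15, 8.19 and 6.07 CPM. *Chrd*, the BMP antagonist chordin, had 2.14, 1.64 and 0.863 CPM against 2.47, 3.23 and 2.17 CPM. All 10 were lowest in wildtype 3 and highest in mutant 2, and 0 of the 10 were among the 10 closest by Spearman correlation.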

How the data were processed

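RNA-Seq was measured in 6 libraries of E13.5 OFTs, with 3 OFTs pooled per library. The deposited values are counts per gene without normalization. Per the labels and the study's methods, the authors used a stranded kit with ribosomal RNA removal and read paired ends in 1 lane. The authors aligned reads to mm10 with TopHat2 2.1.0 and Bowtie2 and counted them on exons with GenomicAlignments, and tested them with DESeq2 1.26.0. Whether the counting used strand is not given in the sources used here. How reads shared by paralogs, such as the beta tubulins, were assigned is not given either. Depth was 34729103 to 44387490 counts per library.

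Groups follow the sample labels. For wildtype replicates 2 and 3 the sample titles and descriptions give opposite library numbers, and the titles were followed. Replicates are pools of embryos, and p-values measure the spread between these pools only.

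Genes summing to at most 5 reads in the 6 libraries were removed, and the 28157 others were tested in R 4.3.3 with edgeR 4.0.16 (TMM, quasi-likelihood test, Benjamini-Hochberg adjustment over all genes tested, adjusted p of at most 0.05). The biological coefficient of variation was 0.17. Single members were compared with a two-sided exact permutation test of log2(CPM + 0.5) over the 20 splits of 3 against 3 libraries. Positions and exon lengths came from the GENCODE annotation of mm10, and promoter sequences from RefSeq. Code was tested on simulated counts.

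By the titles, same-numbered libraries deviated together from their group means, with r of 0.101, 0.152 and 0.458 for pairs 1, 2 and 3 over 16655 genes that averaged 1 CPM or more, so the replicate number by titles was also fitted as a block. The pairing rests on these correlations and not on a litter or day in the labels, and wildtype 1 correlated best with mutant 2 (r = 0.318). By the numbers of the descriptions, pairs 2 and 3 had r of -0.487 and -0.118.

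Alternatives were DESeq2 1.42.0, limma-voom (limma 3.58.1), DESeq2's size factors, library size only, no filter, filterByExpr, replicate blocks, a correction for GC content and length, each library left out, pseudocounts of 1 and 0.1, and other likeness settings. A mesenchymal covariate and the ratios to marker lists were added after the values were seen. DESeq2 gave no adjusted p to some genes with few counts, and these were counted as not called.

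The members and the gene lists were chosen with earlier results of these data known. Named genes are the members, *Notch1* and *Nos3*, the 10 genes most like the members, all genes of their families, and of each related list those called and up to 4 with the largest log2 fold change at a mean of at least 1 CPM. Of marker lists they are up to 3 by level and those at or under 3 counts everywhere. Related lists were pan-neuronal, autonomic factors, catecholamine, cholinergic, nicotinic, and neurotrophin genes. Marker lists were neural crest and Schwann, sensory, central, mesenchymal, myocardial, smooth muscle, endothelial, epicardial, erythroid, foregut and skeletal muscle. The single-cell data of the study were not analysed here. Some genes that fall under the naming rule or the lists are not reported here by name.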

Additional observations from a re-analysis of the deposited data

How the results depend on the processing

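By edgeR 0 of 9 members and 6 of all genes were called. DESeq2 called 2 and 742. The replicate block by titles called 2 and 1577, the block by the numbers in the descriptions called 1 (*Tubb3*) and 83, and the GC content and length correction with the replicate block called 2 and 2279. The blocks, alone or with that correction, changed no other member's call. The mesenchymal covariate called 0 members and 14 genes, with a median of -0.06 for the members, and turned the log2 fold changes of *Stmn2* (-0.51), *Elavl4* (-0.17), *Nefl* (-0.06) and *Dbh* (0.19). With each library left out, 0 to 2 members and 1 to 2593 genes were called, both highest without wildtype 1. The median of the members ran from 0.11 to 0.40. Those fits ran from 1.07 to 1.60 for *Tubb3*, 1.09 to 1.53 for *Kif5a* and 0.24 to 1.09 for *Prph*. Signs turned for *Elavl3* (-1.07 to 0.16, turned without wildtype 1), *Nefm* (-0.33 to 0, without wildtype 2), *Stmn2* (-0.16 without wildtype 3, -0.05 without mutant 2, up to 0.51), *Elavl4* (0 without wildtype 3, -0.02 without mutant 3, up to 0.35) and *Dbh* (0.12 without wildtype 3, 0.07 without mutant 1, down to -0.29). The cause was not tested. Pseudocounts of 1 and 0.1 turned the direction of 0 members. Limma-voom, size factors, library size only, no filter, filterByExpr and the GC correction alone called 0 members; library size only moved the median of all genes to 0.11. Of the 10 genes most like the members, 6 were shared at a mean of at least 5 CPM and 0 with Spearman, and 1, 3, 0, 3, 2, 6, 6, 1 and 4 without *Tubb3*, *Stmn2*, *Elavl3*, *Elavl4*, *Kif5a*, *Nefl*, *Nefm*, *Prph* and *Dbh* in turn, so these names depend on the choice. Depth limits *Dbh*, at 18 to 29 counts, most; with 3 pools a label the exact permutation test cannot go below 0.1.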

Other observations

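Nicotinic receptor subunits of ganglion neurons were all under a mean of 1 CPM. All 6 tested were above 0 (median log2 fold change 0.52), and edgeR called 0 and DESeq2 0. Beside 2318 of all 28157 genes tested (8.23%), 1 was higher at an unadjusted p under 0.05 by edgeR. That gene was *Chrnb4*, named after its values were seen, with 0.360, 0.337 and 0.246 CPM under the wildtype label and 0.650, 1.28 and 0.663 CPM under the mutant label (log2 fold change 1.44, SE 0.43; edgeR adjusted p = 0.203). Of 10 cholinergic and peptidergic genes tested, 7 were above 0 (median 0.12), and edgeR and DESeq2 each called 0. At an unadjusted p under 0.05, 2 were higher by edgeR, beside 8.23% of all genes. *Ache*, which breaks down acetylcholine, had 9.29, 5.54 and 11.7 CPM against 10.3, 8.67 and 12.4 CPM. *Slc5a7*, the choline transporter, had a log2 fold change of 0.12.

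Of the neural crest and Schwann cell precursor list, 16 of 18 genes were tested, with 12 above 0, a median log2 fold change of 0.32 and summed levels of 156 to 172 CPM under the wildtype label and 168 to 185 CPM under the mutant label. EdgeR and DESeq2 each called 0, and 2 were higher at an unadjusted p under 0.05 by edgeR, beside 8.23% of all genes. The sum was carried by *Ets1* (99.7 to 120 CPM), which endothelial cells also express, *Erbb3* (16.8 to 32.2 CPM) and *Cnp* (15.8 to 21.8 CPM). *Sox10*, the defining factor of the crest glial lineage, named after its values were seen, stood at 0.337 to 1.25 CPM. The central neuron list summed to 1.20 to 2.56 CPM under the wildtype label and 2.05 to 3.18 CPM under the mutant label over 5 of 10 genes, all above 0 (median log2 fold change 1.08). The sensory neuron list summed to 6.14, 4.60 and 4.53 CPM against 6.87, 7.34 and 6.34 CPM over 10 of 13 genes, without overlap (6 above 0, median 0.29). The gap, between 6.14 and 6.34 CPM, was narrow. *Runx1* had 2.92, 1.81 and 0.585 CPM against 3.75, 3.55 and 2.31 CPM. *Avil*, named after its values were seen, had 0.63, 0.313 and 1.05 CPM against 1.15, 1.31 and 1.33 CPM, without overlap. Without *Runx1*, or without *Avil*, the summed level of the rest of the list overlapped between the labels. In each of these lists edgeR and DESeq2 called 0. In each, 1 gene was higher at an unadjusted p under 0.05 by edgeR, beside 8.23% of all genes. The epicardial list summed to 253 to 412 CPM under the wildtype label and 275 to 338 CPM under the mutant label, the foregut list to 30.7 to 41.1 and 26.6 to 30.7 CPM, and the skeletal muscle list to 4.07 to 6.53 and 3.05 to 4.30 CPM.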
